A study of Mus musculus with 7 samples.

Results

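SOX2 and JUND events that sit together in the Q7 line were compared read for read. An event is a single base position on mouse build mm9 at which the authors' event caller placed an antibody's binding. A SOX2 event and a JUND event formed a pair where they lay within 100 bp and each was the other's nearest event. The rule used positions alone and gave 16367 pairs, out of 26433 SOX2 events, 46583 JUND events and 137595 listed events in the 3 tables. The pairs held 61.9% of SOX2 events and 35.1% of JUND events.

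The study measured FRA2, JUND and IgG by chromatin immunoprecipitation and sequencing in 2 striatal lines, and SOX2 in the Q7 line, which makes 7 samples. STHdhQ7 (HdhQ7/Q7, called Q7 here) carries the short glutamine tract on both copies of huntingtin, and STHdhQ111 (HdhQ111/Q111, called Q111) the expanded tract that models Huntington's disease. Both lines were derived from striatal primordia of 129SvEv/CD1 mouse embryos at day 14. Cells under passage 15 grew at 33 °C and spent 2 days at 39 °C, the temperature that inactivates the immortalising antigen. Every sample pools replicates 1 and 2, so each antibody has 1 value per line and no spread between replicates could be computed. No RNA was measured, so the identity of the cells was not checked against marker genes. Q7 served for the SOX2 to JUND comparison, and Q111 only for the JUND and FRA2 differences between lines at the same pairs.

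SOX2 is an HMG-box transcription factor that maintains neural progenitors, bends DNA and often binds beside a partner factor. JUND is a basic leucine zipper protein of the Jun family, and FRA2, the product of Fosl2, belongs to the Fos family. A Fos protein binds DNA as AP-1 only when dimerised with a Jun protein such as JUND, whereas a Jun protein can also pair with another Jun or with an ATF protein. SOX2 is not part of that dimer.

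Paired events carried more reads than unpaired ones. SOX2 events in a pair held a median of 36 reads (quartiles 27 and 56.05), and the 10058 SOX2 events with no JUND event within 100 bp held a median of 28 (quartiles 24 and 38). JUND events marked present in Q7 held a median of 42 Q7 reads in the 15591 pairs that contained one, and 28.3 reads at the 19554 with no SOX2 event within reach. The pairs took up 68.9% of the 1193914 SOX2 reads in events and 52.3% of the 1660158 JUND reads of Q7. A listed SOX2 event had at least 20 reads and so did a JUND event present in Q7, which bounds how low either member of such a pair could be. Only 8 SOX2 and 70 JUND events lay within 100 bp of an event of the other table without being paired.

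JUND at the pairs was more often listed in both lines than JUND events as a whole. The authors' table marks 53.2% of paired JUND events as present in both lines, against 37.1% of all JUND events. Another 42.1% of paired events were marked in Q7 alone (38.4% of all) and 4.74% in Q111 alone (24.4% of all). The 776 pairs whose JUND event was marked in Q111 alone had a median of 16.95 JUND reads in Q7 and 27 SOX2 reads. Those JUND events were listed without a present mark in Q7, and their median log2 ratio (defined below) was 0.92, on the SOX2 side. Why it lies there was not tested. The main values by class, bin and line are also given without them.

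The ratio at each pair is log2((SOX2 + 0.5)/(JUND + 0.5)) of the Q7 reads minus its median over all pairs, which was -0.10. Positive values lie on the SOX2 side. A ratio of 0 therefore means the balance of the typical pair and not equal occupancy, since the antibodies differ in efficiency. The 5th and 95th percentiles were -1.37 and 1.46, the SD over pairs was 0.85, and the values ran from -2.91 to 4.03. SOX2 and JUND lay within 2-fold of the typical balance at 77.3% of pairs (95% Wilson interval 76.6% to 77.9%). A difference of 4-fold or more was present at 392 pairs, 253 on the SOX2 side and 139 on the JUND side.

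Each over its own set of pairs, SOX2 and JUND differed more than JUND and FRA2 did, and less than SOX2 and FRA2 did. The same rule gave 35176 FRA2-JUND pairs in Q7, where the SD of the log2 ratio was 0.71 and 85.4% of pairs lay within 2-fold of their own typical balance. It gave 14907 SOX2-FRA2 pairs with an SD of 1.20, of which 57.8% lay within 2-fold. Across pairs, Pearson's r of log2 reads was 0.45 for SOX2 with JUND (n = 16367; Spearman's rho 0.43), 0.85 for FRA2 with JUND (n = 35176) and 0.30 for SOX2 with FRA2 (n = 14907). These correlations describe sites within single libraries. Sites share the accessibility and mappability of their region. At SOX2-JUND pairs, SOX2 events and JUND events marked present in Q7 had at least 20 reads in Q7. JUND events marked in Q111 alone, 4.74% of these pairs, had as few as 3. The FRA2-JUND and SOX2-FRA2 pairs were not limited to events present in Q7 either. Of all JUND events, 24.4% were marked in Q111 alone, so these sets were not matched. With JUND events present in Q7 only, r for SOX2 with JUND was 0.44 (n = 15591). That value was not computed for FRA2 with JUND or SOX2 with FRA2.

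The SOX2 share of the reads at each pair was tested against the typical share (exact binomial, two-sided), with p-values adjusted by the Benjamini-Hochberg method over all pairs, and called when the adjusted p was below 0.05 and the fold at least 2. SOX2-leaning pairs numbered 1865 (11.4% of those tested) and JUND-leaning pairs 1780 (10.9%), together 22.3%. The calls were thus split almost evenly, 51.2% of them SOX2-leaning. That split depends on the scaling: with the total reads in events in place of the median ratio, every pair moved by 0.38 toward SOX2 and 3538 pairs were SOX2-leaning against 807 JUND-leaning, 81.4% of calls on the SOX2 side. The test covers counting error only and compares 2 libraries made with different antibodies, not 2 conditions. Reads without molecular identifiers are not independent molecules, and if each library is given a dispersion of 0.05 the calls were 516 and 392.

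**Figure D1:**
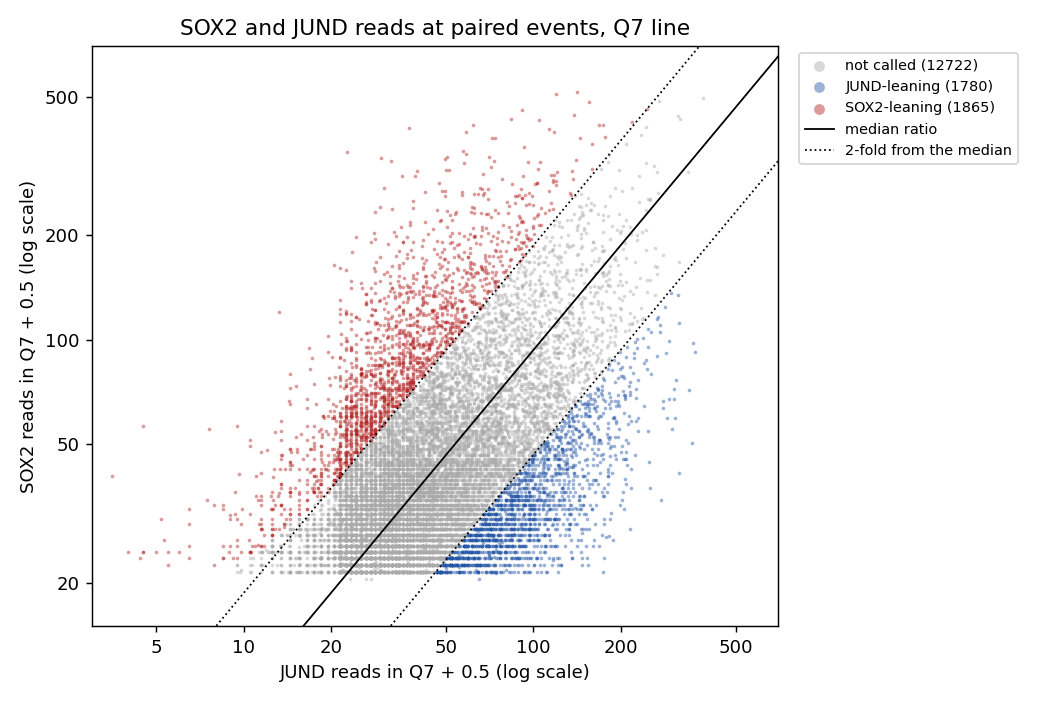
SOX2 reads against JUND reads at the 16367 pairs in Q7, each with 0.5 added, on log axes. Points are pairs coloured by call; the solid line is the median ratio and the dotted lines lie 2-fold to either side, so the 1865 SOX2-leaning pairs lie above and the 1780 JUND-leaning pairs below them.

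The classes differed in the reads of both factors. SOX2-leaning pairs had a median of 82 SOX2 and 31 JUND reads, and JUND-leaning pairs had 30 and 91. Pairs that were not called had 35 and 39. The control reads in the deposited tables, which do not say which library they come from, had medians of 4.3 (SOX2 table) and 4.6 (JUND table) over all pairs, and 4.3 and 3.5 at SOX2-leaning pairs. The 2 control columns ranked the pairs alike (Spearman's rho 0.90). At the 3 pairs with 40 or more control reads, SOX2 and JUND differed by 1.05- to 1.13-fold after centring.

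The SOX2-leaning pairs with the clearest departure combined 233 to 406 SOX2 reads with 22.3 to 39 JUND reads. The pair on chromosome 10 with SOX2 at 44436627 and JUND at 44436580 (mm9, as are all positions given) held 346.5 SOX2 and 22.3 JUND reads in Q7. SOX2 was 16.3-fold above the typical balance there (95% exact interval 10.9 to 27.2; exact binomial test, adjusted p = 5.22e-77). JUND in Q111 came to 6.1 reads and no FRA2 event was listed within 100 bp. On chromosome 3, SOX2 at 108837580 had 406 reads and JUND at 108837524 had 36.6, an 11.7-fold difference, with 3.6 JUND reads in Q111 and again no FRA2 event. The paired JUND event was thus below the median of paired JUND events in Q7 (41 reads) at both sites. It was called lower in Q111 by the test between lines. A further JUND event lay within 500 bp at each site, and JUND summed to 66 and 80 reads in Q7 there. Reads in Q111 were not summed.

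FRA2, where it was listed at the 10 clearest SOX2-leaning pairs, had a median of 31.1 reads in Q7, beside 71 at uncalled pairs. On chromosome 2, SOX2 at 32292707 had 333 reads and JUND at 32292742 had 29.3, and the FRA2 event 89 bp from JUND held 96 reads in Q7 and 68 in Q111, the most of the 10. On chromosome 19, SOX2 at 12834484 had 295.7 reads, JUND at 12834493 had 38.5 in Q7 and 0 in Q111, and FRA2 had 31.1 and 4.8. On chromosome 12, SOX2 at 120266822 had 233 reads, JUND at 120266870 had 28 in Q7 and 5 in Q111, and FRA2 had 23 and 2. A FRA2 event was within 100 bp at 7 of them, with 23 to 96 reads in Q7. JUND was called lower in Q111 at 7 of the 10, beside 35.0% of all pairs and 23.3% of all JUND events. The Q7 JUND reads in that test also entered the ratio that chose these 10, so no conclusion is drawn from this count. FRA2 was called lower at 4 of the 7, beside 31.8% of pairs with FRA2 and 21.3% of all FRA2 events. Neither was called higher at any of these 10, beside 3.56% (JUND) and 3.60% (FRA2) of pairs.

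Several of these SOX2 events had a further JUND event close by. Summed over all events within 500 bp of the pair, an alternative added after the values were seen, the pair at chromosome 10, 44436627, had 346.5 SOX2 and 66 JUND reads (5.83-fold), and the pair at chromosome 19, 12834484, had 295.7 and 145 (2.28-fold). Each of the 10 pairs was still called SOX2-leaning on these sums. In all, 32.5% of SOX2-leaning pairs and 11.5% of JUND-leaning pairs had 2 or more JUND events within 500 bp, beside 17.9% of all pairs. For 2 or more SOX2 events the shares were 16.8%, 8.03% and 10.1%. On the sums 1447 of the 1865 SOX2-leaning and 1489 of the 1780 JUND-leaning pairs kept their call, and 8 SOX2-leaning pairs turned JUND-leaning.

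The clearest JUND-leaning pairs were sites of high FRA2 in both lines. On chromosome 10, SOX2 at 12530820 and JUND at 12530819 lay 1 bp apart with 34 and 276 reads, so JUND was 7.49-fold above the typical balance (95% exact interval 5.30 to 11.2). FRA2 reads came to 418 in Q7 and 180 in Q111. On chromosome 6, SOX2 at 52775686 had 41 reads and JUND at 52775728 had 317 in Q7 and 339 in Q111, with 692.1 and 820.4 FRA2 reads. On chromosome 10, SOX2 at 123575684 had 50 reads, JUND at 123575732 had 351 in Q7 and 143 in Q111, and FRA2 had 946 and 716. Over the 10 pairs JUND ranged from 154.2 to 351 reads, SOX2 from 21 to 50, and FRA2 in Q7 from 203.9 to 946. All 10 had a FRA2 event, with a median of 377.5 reads in Q7. That level was not particular to them. The FRA2 median in Q7 was 343.9 at the 5 pairs with the most reads. It was 373.3 at the 5 pairs balanced within 1.5-fold with the most reads. JUND was called lower in Q111 at 3 of the 10 JUND-leaning pairs, beside 35.0% of all pairs, and FRA2 at 1, beside 31.8% of pairs with FRA2. The JUND count again shares its Q7 reads with the ratio that chose the pairs, so no conclusion is drawn from it.

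**Figure D2:**
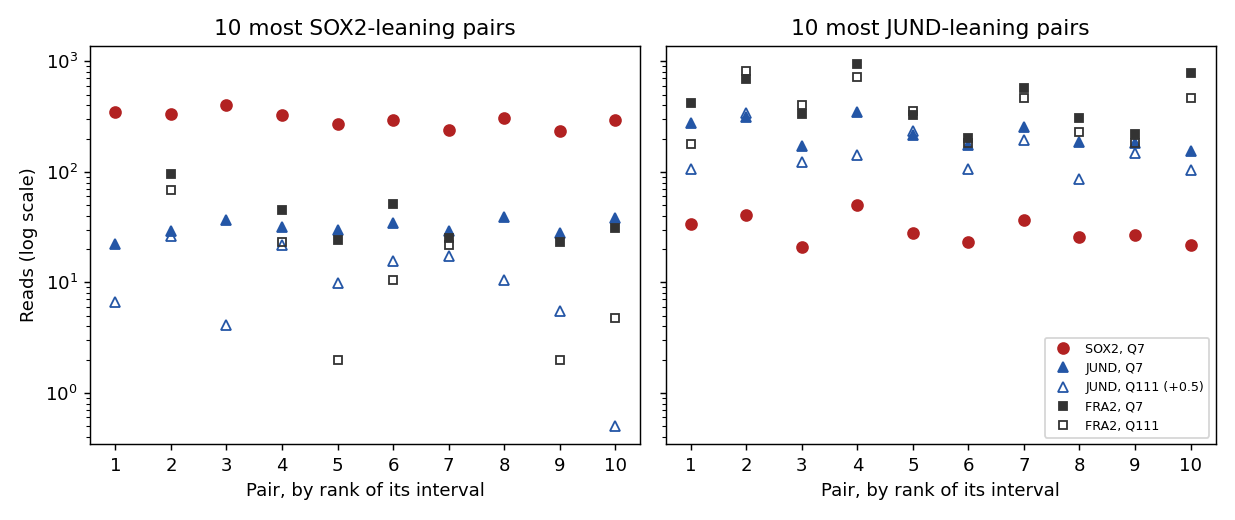
Reads (log axis) at the 10 SOX2-leaning (left) and 10 JUND-leaning (right) pairs whose fold interval lies farthest from 1, in order of that interval; circles are SOX2, triangles JUND and squares FRA2, filled for Q7 and open for Q111, with 0.5 added to JUND in Q111. FRA2 lies at 23 to 96 reads in Q7 at the 7 pairs with a FRA2 event on the left and at 203.9 to 946 on the right.

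Pairs with the most reads of both factors were not the most one-sided. The pair on chromosome 15 with SOX2 at 71533704 and JUND at 71533695 held 494 and 384.5 reads, a 1.37-fold difference toward SOX2, and FRA2 there went from 876.3 reads in Q7 to 671.7 in Q111. On chromosome 4, SOX2 at 53240856 had 462 reads and JUND at 53240852 had 246, and the 2.01-fold difference passed the fold limit narrowly. Its log2 ratio of 1.01 fell to 0.98 with a pseudocount of 5 and to 0.98 with a distance limit of 200 bp, either of which ended the call, as did a dispersion of 0.05. JUND at that site dropped from 246 reads in Q7 to 89 in Q111, and FRA2 from 517 to 171. The pair on chromosome 10 with SOX2 at 24991831 and JUND at 24991744 was the balanced pair with the most reads, 304 and 340, or 1.04-fold after centring.

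FRA2 was more often listed, and had more reads, on the JUND side of the ratio. FRA2 reads entered neither the pairing nor the ratio. A FRA2 event lay within 100 bp of JUND at 80.7% of pairs, beside 75.6% of all JUND events (76.8% of those present in Q7). It did so at 99.6% of JUND-leaning pairs (95% Wilson interval 99.2% to 99.8%), 80.3% of pairs not called and 65.4% of SOX2-leaning pairs (63.2% to 67.5%). Where a FRA2 event was listed, its median in Q7 was 193.4 reads at JUND-leaning, 71 at uncalled and 43.9 at SOX2-leaning pairs. The order of the classes in FRA2 reads was that of their JUND reads (91, 39 and 31), which are the denominator of the ratio that defines them.

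FRA2 rose with the reads of either factor taken alone, over a wider range with JUND. In 4 bins of equal size by JUND reads, from the lowest to the highest, 56.4%, 76.2%, 91.3% and 98.9% of pairs had a FRA2 event, and its median reads in Q7 were 33, 50, 85.95 and 182.85. In 4 bins by SOX2 reads the shares were 75.2%, 78.4%, 82.6% and 86.5%, and the medians 59, 68, 82 and 111.05. Of the 3162 pairs without FRA2, 645 (20.4%) were SOX2-leaning and 7 (0.22%) JUND-leaning. Of the 13205 pairs with FRA2, 9.24% were SOX2-leaning and 13.4% JUND-leaning. Over 10 bins of the ratio from the JUND side to the SOX2 side, the share with FRA2 fell from 99.7% to 64.6% and its median reads in Q7 from 197 to 43. Without the JUND events marked in Q111 alone, the last bin had a share of 67.5%, a median of 47.2 reads and a median FRA2 log2 fold between lines of -1.29 in place of -1.07.

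**Figure D3:**
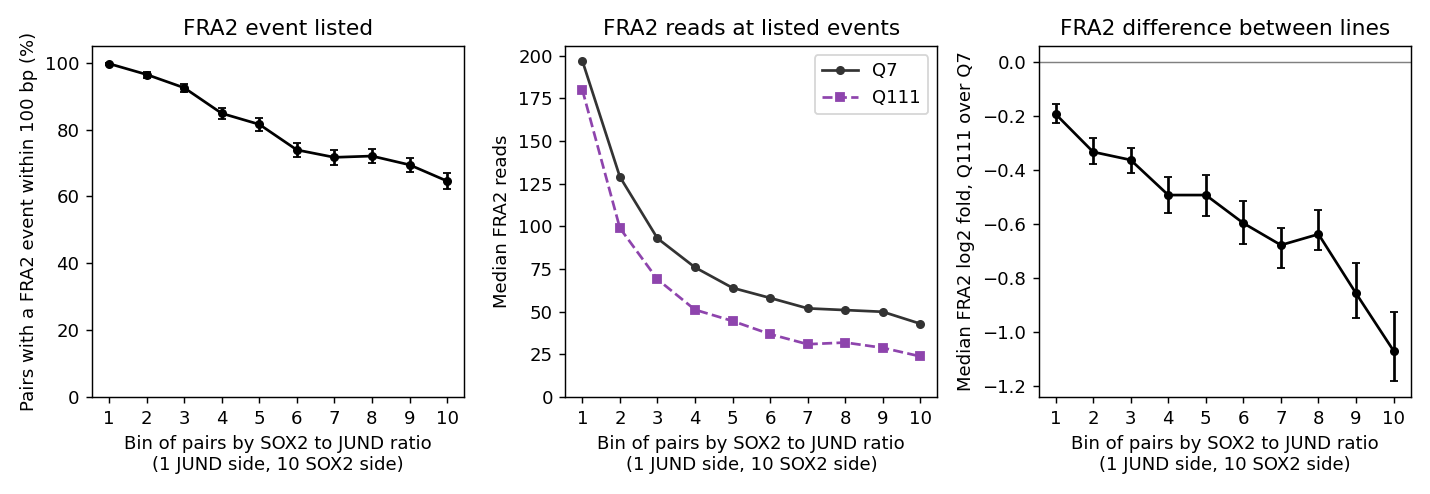
Pairs in 10 bins of equal size by the SOX2 to JUND ratio, from the JUND side (1) to the SOX2 side (10): the share with a FRA2 event within 100 bp (left, %), median FRA2 reads at listed events in Q7 and Q111 (middle) and the median FRA2 log2 fold, Q111 over Q7 (right). Bars are 95% intervals (Wilson for shares, order statistics for medians); the fold lies at -0.19 in the first bin and at -1.07 in the last.

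FRA2 was lower in Q111 at many of these sites, most of all where SOX2 led. Log2 folds between lines (Q111 over Q7) were centred on events of the same antibody present in both lines and tested per event by the exact binomial test, adjusted over all events of the table. Among all FRA2 events, 21.3% were called lower in Q111 and 23.3% higher, with a median log2 fold of 0.00. At pairs with a FRA2 event, 4205 (31.8%) were lower and 476 (3.60%) higher, with a median of -0.48. The median was -1.10 at SOX2-leaning pairs (95% order-statistic interval -1.20 to -0.98), -0.51 at uncalled pairs and -0.20 at JUND-leaning pairs (-0.23 to -0.16).

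Counted by calls, FRA2 was lower in Q111 at 630 of 1220 SOX2-leaning pairs with a FRA2 event (51.6%) and higher at 62 (5.08%). The same counts were 270 (15.2%) and 20 (1.13%) of 1773 JUND-leaning pairs. With the pairs marked in Q111 alone taken out of these classes, the SOX2-leaning median was -1.27 over 1594 pairs, of which 1081 had a FRA2 event, with 58.1% lower and 1.48% higher. Median FRA2 reads went from 43.9 in Q7 to 24 in Q111 at SOX2-leaning pairs and from 193.4 to 173 at JUND-leaning pairs. SOX2 was mapped in Q7 alone, so sites that hold SOX2 in Q111 could not enter the pairs, and a loss at SOX2 sites cannot be told apart from the choice of sites in Q7, for FRA2 and for JUND alike.

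JUND also differed between the lines by the amount of SOX2 beside it. This fold was set against SOX2 reads and not against the ratio, which holds the same Q7 JUND reads. Among all JUND events, 23.3% were called lower in Q111 and 17.4% higher (median -0.13). At the pairs, 5729 (35.0%) were lower and 583 (3.56%) higher, with a median of -0.56. From the lowest to the highest of 4 bins by SOX2 reads the JUND median went from -0.27 over -0.38 and -0.67 to -1.0, and the share called lower from 23.9% to 49.3%. FRA2 medians over the same bins were -0.24, -0.36, -0.52 and -0.78. Without the JUND events marked in Q111 alone, the JUND medians were -0.37, -0.47, -0.71 and -1.01 and the FRA2 medians -0.31, -0.39, -0.54 and -0.78, so both still fell from bin to bin.

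JUND reads in Q7 rose over those bins too, with medians of 31.4, 36, 44 and 62. The pairs were therefore divided by JUND reads as well, a step added after the data were seen. In each of the 4 bins by JUND reads, the FRA2 and the JUND median were lower at every step up in SOX2 bin. Within the highest JUND bin, FRA2 reads in Q7 hardly varied with SOX2 (medians 178.85, 182, 179 and 186.6), while those in Q111 were 169, 162, 137.25 and 119. The FRA2 medians there were -0.09, -0.20, -0.35 and -0.60 and the JUND medians -0.31, -0.44, -0.57 and -0.83. JUND reads still rose within that bin, from a median of 79 in the lowest to 101 in the highest SOX2 bin.

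The fall was present at each level of JUND reads and was smallest in the highest JUND bin. In the JUND bin below, the FRA2 median went from -0.24 in the lowest to -1.03 in the highest SOX2 bin, and in the bin below that from -0.37 to -1.30. In the lowest JUND bin it went from -0.18 to -1.20 for FRA2 and from -0.02 to -1.05 for JUND. That bin held 773 of the 776 JUND events marked in Q111 alone, and without them its medians went from -0.50 to -1.26 for FRA2 and from -0.39 to -1.19 for JUND. On 20 of 20 chromosomes FRA2 and JUND both had a lower median in the highest than in the lowest SOX2 bin. The difference ranged from -0.17 to -0.88 for FRA2 and from -0.33 to -0.95 for JUND. Scaling the lines by the Control columns, whose library the tables do not name, in place of shared events lowered all JUND folds by 0.55 and all FRA2 folds by 0.30, and left the differences between bins as they were.

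**Figure D4:**
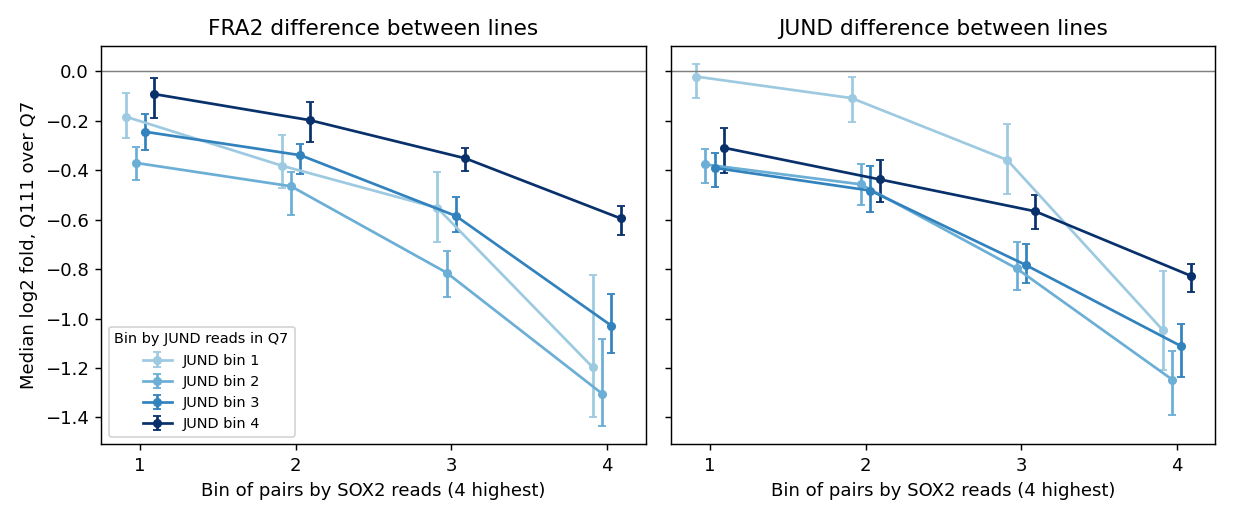
Median log2 fold between lines (Q111 over Q7) of FRA2 (left) and JUND (right) at pairs, by bin of SOX2 reads (x axis) within each bin of JUND reads in Q7 (line colour, darkest is highest); bars are 95% order-statistic intervals. Each line falls from the lowest to the highest SOX2 bin, from -0.09 to -0.60 for FRA2 in the highest JUND bin.

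No single spacing between SOX2 and JUND positions stood out. The error of event positions was not measured, so a fixed spacing blurred by it could go unseen. The median distance was 34 bp (95% order-statistic interval 33 to 34; quartiles 16 and 58), within the limit of 100 bp that the pairing set. FRA2-JUND pairs, under the same limit, had a median of 14 bp, and SOX2-FRA2 pairs one of 34 bp. Within 20 bp lay 31.7% of SOX2-JUND, 31.4% of SOX2-FRA2 and 63.7% of FRA2-JUND pairs. At pairs with 100 or more reads of both, where positions rest on more reads, SOX2 and JUND remained 32 bp apart (467 pairs, 31.7% within 20 bp), and FRA2 and JUND 10 bp (1846 pairs, 76.0%).

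On forward-strand coordinates the signed distance was symmetric about 0. SOX2 had the higher coordinate at 8099 pairs, the lower at 8138 and the same base at 130, so 49.9% of unequal pairs had SOX2 higher (95% Wilson interval 49.1% to 50.6%). Events carry no strand, so an orientation relative to a motif could not be read, and the even split says nothing about one. Within 30 bp each signed distance held 92 to 152 pairs (mean 122.9, variance over mean 1.35), the most at -2 bp. Density then fell without a step to 33.2 pairs per signed bp at 91 to 100 bp, and mutual nearest events beyond the limit thinned to 1.41 per bp at 201 to 500 bp and 0.25 at 501 to 1000 bp.

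The limit did not mark a change in the pairs. The 664 pairs in the last 10 bp inside it had medians of 35 SOX2 and 37 JUND reads and a median ratio of 0.06. The 549 mutual nearest events in the first 10 bp outside it had medians of 35 and 35 and a ratio of 0.13. JUND-leaning pairs lay somewhat closer together (median 28 bp, 37.0% within 20 bp) than SOX2-leaning pairs (36 bp, 30.8%) or uncalled pairs (34 bp, 31.1%).

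**Figure D5:**
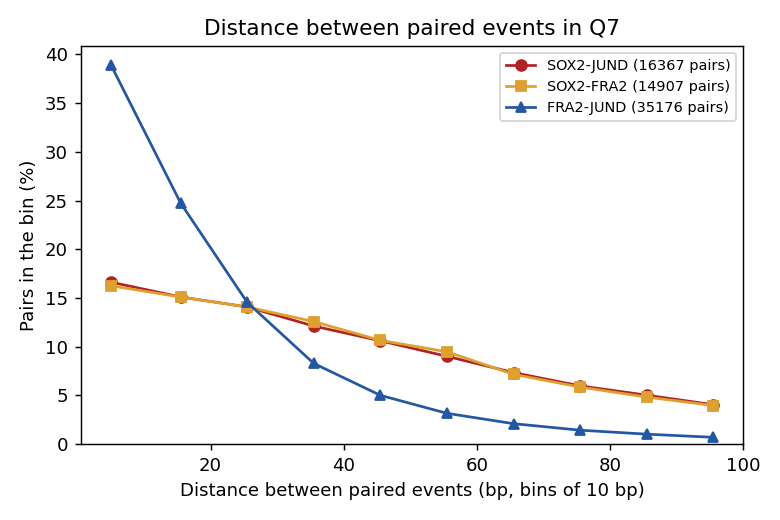
Share of pairs (%) by distance between the paired positions in 10 bp bins, for SOX2-JUND, SOX2-FRA2 and FRA2-JUND pairs in Q7. The SOX2-JUND and SOX2-FRA2 curves start at 16.6% and 16.3% and nearly coincide, while FRA2-JUND starts at 38.9%.

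Where SOX2 and JUND lay apart, FRA2 was nearer JUND than SOX2 at most pairs. Of 7156 pairs at least 30 bp apart with a FRA2 event, FRA2 was nearer JUND at 5704 (79.7%, 95% Wilson interval 78.8% to 80.6%), nearer SOX2 at 1423 and equally far at 29. The FRA2 event was taken as the one nearest the midpoint of the pair, within 100 bp of it, which favours neither position. Its median distance was 15 bp to JUND and 51 bp to SOX2. FRA2 was nearer JUND at 88.9% of the 863 JUND-leaning pairs in this set and at 69.7% of the 702 SOX2-leaning ones, where FRA2 and JUND had fewer reads.

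Median ratios differed little between chromosomes beside the SD over pairs (0.85), but the shares of calls varied. The JUND-leaning share ran from 5.26% on chromosome X to 16.1% on chromosome 17. The SOX2-leaning share ran from 8.77% on chromosome 7 to 13.9% on chromosome 13. Medians ran from -0.18 on chromosome 17 (95% order-statistic interval -0.24 to -0.13), where 120 of 745 pairs were JUND-leaning (16.1%), to 0.20 on chromosome 18 (0.10 to 0.32). The sign of the chromosome 17 median turned with total-read scaling (0.20), as it would for any median between -0.38 and 0. On chromosome X, 49.4% of SOX2 events were paired, the lowest share, and the median was 0.14 over 190 pairs.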

How the data were processed

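Per the submitters' processing notes, reads were aligned with Bowtie 0.12.7 to mm9; the deposited tables carry the name of the GPS event caller, with version and settings not given in the sources used here. IP columns, as deposited, hold expected counts of reads per event, per the file headers and values; the deposited Control columns hold a scaled control signal from a library the tables do not name. The deposited q-values (as −log10) served only as an alternative threshold, and 22 further value columns were not used. Groups came from sample titles. Expected counts were rounded for the exact binomial tests (Python 3.11.15, numpy 2.4.6, pandas 2.3.3, scipy 1.17.1). The tests were checked on simulated counts with counting error only, as the tests themselves assume. Variation beyond counting error was not part of that check. Adjusted p-values are Benjamini-Hochberg. Folds carry Clopper-Pearson, shares Wilson and medians order-statistic 95% intervals; all cover counting error or variation over sites only, and neighbouring sites are not independent. The pairs named were the 10 called per direction with the farthest interval, the 5 with the most reads, the 5 balanced within 1.5-fold with the most reads, and apart those with 40 or more control reads; a few of each are printed. Members, rules and lists were chosen with earlier results of these data known. No mm9 genome or annotation was used here, so the planned motif search, gene lists and printed sequences were left out. Alternatives changed distance, listing, q-value, scaling, control, pseudocount, dispersion, read and fold limits.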

Additional observations from a re-analysis of the deposited data

How the results depend on the processing

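No paired analysis was possible because replicates 1 and 2 were pooled in every sample, and no replicate was left out for the same reason. Of 186 summary values recomputed under alternatives, 134 held, 51 moved and 1 reversed; of 438 values for single pairs, called or not, 431 kept both sign and side of the threshold, 4 lost a call, 1 gained one and 2 uncalled pairs near 0 changed sign. Values are given below for those that moved, and why they moved was not tested. The share of pairs within 2-fold was 76.5% at a distance limit of 50 bp, 78.3% with JUND events present in Q7 only, 78.1% at a −log10 q-value of at least 5, 73.0% scaled by total reads, 72.6% with control reads subtracted and 81.0% with a pseudocount of 5. The median distance followed its limit, 22 bp at 50 bp and 40 bp at 200 bp.

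The q-value limit left 8189 pairs, with 1001 SOX2-leaning and 793 JUND-leaning. Calls were 3538 and 807 scaled by total reads, 516 and 392 with a dispersion of 0.05, and 253 and 139 at a fold limit of 4. Scaling by total reads adds 0.38 to every pair, so any value between -0.38 and 0 changes sign by construction. This took the median of chromosome 17 to 0.20, that of chromosome 18 to 0.58, and to 0.31 each the uncalled pairs on chromosome 10 with JUND at 24991744 and chromosome 19 with JUND at 61275669.

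The share of SOX2-leaning pairs with FRA2 was 63.1% at a limit of 200 bp for pairs, 67.9% with JUND events present in Q7 only, 78.3% at the q-value limit, 62.6% with the dispersion, 55.3% at a fold limit of 4, and 52.9% and 71.0% with FRA2 within 50 and 200 bp. For JUND-leaning pairs it was 100% at the q-value limit and at a fold limit of 4, 99.9% scaled by total reads, 98.6% with control reads subtracted, 97.1% with FRA2 within 50 bp and 95.8% with reads summed over 500 bp.

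The median FRA2 log2 fold (Q111 over Q7) of SOX2-leaning pairs was -1.26 with pairs rebuilt and recentred from JUND events present in Q7 only (1734 SOX2-leaning pairs), -1.28 at the q-value limit, -0.93 scaled by total reads, -1.38 with the dispersion, -1.26 at a fold limit of 4 and -1.40 with lines scaled by control reads. For JUND-leaning pairs it was -0.12 with the dispersion, -0.043 at a fold limit of 4, -0.15 with lines unscaled and -0.49 with lines scaled by control reads. The JUND fold of the lowest SOX2 bin was -0.37 with JUND events present in Q7 only, -0.45 at the q-value limit, -0.31 with at least 40 reads per pair, -0.19 unscaled and -0.82 scaled by control reads. That of the highest bin was -1.11 at the q-value limit, -0.93 unscaled and -1.56 scaled by control reads. Within the highest JUND bin, control scaling gave FRA2 folds of -0.39 and -0.89 in the lowest and highest SOX2 bins. Depth limits single pairs: the typical pair held 82 reads over both libraries.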

Other observations

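Ratios of neighbouring pairs were only weakly alike. Pearson's r of the log2 ratio between adjacent pairs was 0.09 at gaps under 1 kb (n = 1165), 0.08 at 1 to 5 kb (n = 1974), 0.04 at 5 to 20 kb (n = 3110), 0.03 at 20 to 100 kb (n = 5484) and 0.05 beyond 100 kb (n = 4614). Adjacent pairs within 1 kb were both called at 68 places, in the same direction at 41 (60.3%), and those over 100 kb apart at 213, in the same direction at 125 (58.7%). Medians were also taken over 1 Mb windows. Of 675 windows with 10 or more pairs, 32 had a median above 0.5 and 30 below -0.5, with a lowest of -1.05 and a highest of 1.18 (18 pairs, 10 of them SOX2-leaning). The 5 windows with the most pairs (38 to 53) had medians of -0.30 to 0.07. The following windows were chosen after their values were seen. On chromosome 8 at 124 to 125 Mb the median over 19 pairs was -0.96, with 8 JUND-leaning and 0 SOX2-leaning pairs. On chromosome 1 at 89 to 90 Mb it was -1.05 over 10 pairs, 5 of them JUND-leaning. On chromosome 13 at 114 to 115 Mb it was 1.01 over 10 pairs, 5 of them SOX2-leaning. On chromosome 12 at 35 to 36 Mb it was 0.89 over 12 pairs, 5 SOX2-leaning and 1 JUND-leaning.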
